A study of Mus musculus with 9 samples.

Results

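T cell receptor (TCR) signalling genes encode the chains that carry the receptor's signal into the cell, the kinases and adaptors that relay it, the surface receptors that modify it and the proteins that dampen it. The set described here held 41 such genes, chosen by symbol for their role. Of the 41, 39 had an annotated probe and 36 had a probe with a detection p under 0.05 on at least 3 of the 9 arrays. These 36 were tested among 10072 genes, each read by its detected probe with the highest mean. Lck and Sh2d1a had no annotated probe and were not analysed here. The probes of Txk and Cd5 were detected on 0 arrays and that of Plcg1 on 1, so these genes were not tested. All 36 tested members were detected on at least 1 array of every group, 34 of them on all 9 arrays and Icos and Ctla4 on 7.

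The series measured mouse RNA on the Illumina MouseWG-6 v2.0 array, on which each bead type carries 1 probe, and its title concerns whether T cell leukaemias started by the transcriptional cofactor Lmo2 still need it. Of the 9 arrays, 3 were of leukaemia cell lines, numbered 3, 175 and 261 in the labels and called lines 1, 2 and 3 here, which grew out of T cell leukaemias of mice with an Lmo2 transgene under the promoter of the T cell gene CD2. Another 3 were of thymus labelled Lmo2 transgenic, and 3 were of wild-type thymus. All carry the strain C57BL/6 in the labels, and no label gives an age or a sort of the cells. Each line is 1 array, and nothing in the labels says that thymus samples came from separate animals, so p-values measure only the spread between these samples. About 300 ng of total RNA was labelled for each array, median raw intensity ran from 118.5 to 161.2, and 35.0% to 43.0% of probes were detected. The number of arrays limits the precision of every value.

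The TCR transmits its signal through the CD3 and zeta chains, whose tails are phosphorylated by the Src family kinases LCK and FYN and then bind the kinase ZAP-70. ZAP-70 phosphorylates the scaffolds LAT and SLP-76, from which branches lead to calcium and the NFAT factors, to RAS, to protein kinase C theta and NF-kappaB, and to the actin cytoskeleton. In the thymus the strength of this signal decides which developing T cells survive, and in T cell leukaemia parts of the same machinery are often lost or rewired.

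The labels were checked against the data first. Lmo2 read 6.95, 6.22 and 5.42 (log2 intensity) on labelled transgenic arrays 1 to 3, against 7.95, 8.0 and 8.21 on the wild-type arrays, and it was not detected in any line. It was thus lower on the arrays labelled transgenic (-1.86 ± 0.36 SE, limma adjusted p = 0.0325), which goes against the label, and whether its probe reads the transgene was not tested. That group is called labelled transgenic throughout. Xist, which coats the silenced X of female cells, read 12.66 on labelled transgenic array 1 and 11.37 on array 2 and lay near background on array 3 and in wild type, while Y-linked Eif2s3y was detected on array 3, on the 3 wild-type arrays and in line 1 (9.56), and read 4.36 and 4.46 in lines 2 and 3. Xist read 4.49, 5.47 and 4.34 in lines 1 to 3, so neither gene was high in lines 2 and 3. Sex-linked signal and group therefore cannot be told apart on labelled transgenic arrays 1 and 2. The Eif2s3y signal also differs between lines 2 and 3 and wild type. Of 12 measured thymocyte markers, 5 were detected in all 3 lines, 9 on all labelled transgenic arrays and 11 on all wild-type arrays. The coreceptor gene Cd8a was detected on 0 of the 9 arrays and Cd4 in 3 of 3 lines and on 1 of 3 arrays in each thymus group, whereas Thy1, Cd8b1 and Bcl11b were detected on all 9. Line 1 read Rag1, Dntt, Ptcra and Notch1 at 4.72 to 4.95, against 10.46 to 11.23 in lines 2 and 3.

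Labelled transgenic array 2 stood apart in single probes. Of 14717 probes compared, 424 (2.88%) read at least 1.5 log2 units below the lowest of the other 5 thymus arrays there, against 12 on labelled transgenic array 1, 53 on array 3, and 4, 0 and 0 on wild-type arrays 1 to 3. Among 64 such probes of the members, 6 (9.38%) were low on array 2. The zeta chain gene Cd247 read 6.01 there by the probe used, against 10.83 and 11.05 on labelled transgenic arrays 1 and 3 and 9.39, 11.05 and 10.90 in wild type. Its other probes read 7.89 and 6.72 on the same array, the highest of all 6 thymus arrays. Zap70 was read at 4.67 by 1 probe on array 2 and at 11.69 and 10.72 by its other probes, close to the other labelled transgenic arrays (11.58 and 11.46, 10.69 and 10.83). Sla, Rasgrp1 and Fyn also had a probe that was low on array 2, at 5.40, 6.44 and 5.41, and Cd28 read 7.07 by its only probe. For Cd247, Fyn and Cd28 the low probe was the one used, and their differences between the thymus groups are given with and without array 2. Differences of the lines from labelled transgenic thymus include array 2 unless stated. On array 3, 1 member probe was low, that of Icos at 4.86. What lies behind these low probes was not tested.

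**Figure D1:**
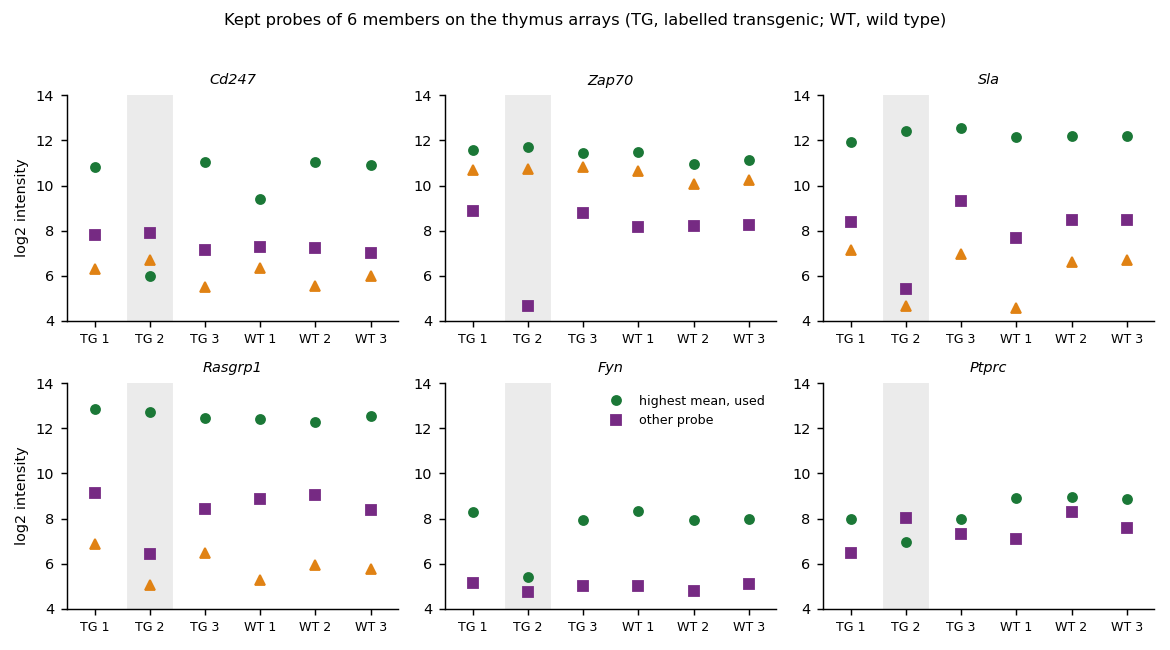
Log2 intensity of the kept probes of Cd247, Zap70, Sla, Rasgrp1, Fyn and Ptprc on labelled transgenic (TG) and wild-type (WT) thymus arrays 1 to 3, with circles for the probe used, other symbols for other probes of the gene and a grey band on labelled transgenic array 2. On that array single probes of Cd247 (6.01), Zap70 (4.67), Sla (5.40), Rasgrp1 (6.44) and Fyn (5.41) drop away while another probe of Cd247, Zap70, Sla and Rasgrp1 does not.

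Labelled transgenic against wild-type thymus compares the groups as labelled, with the Lmo2 and Xist values above. The inhibitory receptor gene Ctla4 fell by 3.15 ± 0.37 (SE) log2 units and the costimulatory receptor gene Cd28 by 2.31 ± 0.47. Another 4 members differed by over 1 log2 unit without a call, namely Ptprc (-1.28), Icos (-1.29), Cd247 (-1.15) and Malt1 (-1.11), so that 16.7% of the members did so against 7.98% of all genes. Of these, Cd247 rests on its low probe on labelled transgenic array 2 and differed by 0.49 without that array. The Icos value includes its low reading on array 3 (4.86). Neither share was computed without these arrays. Differences ran in both directions, with a median of 0.01 against 0.00 over all genes tested and a median size of 0.34 against 0.23. In limma 0 of 36 members rose and 2 fell, where 4.68% of all genes were called, 2.29% upward and 2.38% downward. The 3 labelled transgenic arrays all lay above wild type for 6 members and all below it for 8, against 11.2% and 11.1% of all genes (22.3% together). Cd28 and Ctla4 were called together with 7 of 11 NK and cytotoxic markers and 5 of 8 MHC class II markers, all downward. On the same arrays 3 of 12 thymocyte markers and 2 of 11 macrophage and granulocyte markers fell and 0 rose. Of the B cell, stromal and erythroid markers 0 of 9, 0 of 3 and 0 of 2 were called. Summed linear intensity of the NK list ran from 2957 to 5774 on labelled transgenic arrays and from 11921 to 13207 on wild-type arrays, with all 11 genes detected in both groups. The part of other cells in these results was not tested, and in such bulk samples fewer cells of a type and less RNA per cell cannot be told apart. Without labelled transgenic array 2 the fit called 4 members, adding Ptprc and Malt1. Without labelled transgenic array 3 or wild-type array 1, 2 or 3 it called 1, Ctla4.

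Lines against wild-type thymus asks how far established leukaemias depart from normal thymus. Chains of the receptor (Cd3e, Cd3g), enzymes and adaptors (Tec, Lcp2, Rasgrp1), the NFAT factor gene Nfatc1 and the inhibitor genes Csk and Cblb were among those that fell, while Zap70, Sla, Grap2 and Nfkbia had positive differences without a call. In limma 0 members rose and 12 of 36 fell, where 24.5% of all genes were called, 12.1% upward and 12.4% downward. The 12 were Cd3e, Cd3g, Tec, Ptprc, Lcp2, Themis, Rasgrp1, Malt1, Nfatc1, Ctla4, Csk and Cblb. The median difference of the members was -0.90 against 0.08 over all genes tested. All 3 lines lay below all wild-type arrays for 21 members and above them for 2, Sla and Nfkbia, against 21.6% and 24.6% of all genes (46.2% together). Of the marker lists, 11 of 11 NK, 8 of 8 MHC class II, 8 of 11 macrophage and granulocyte, 4 of 9 B cell and 4 of 12 thymocyte markers fell on the same arrays, 0 of 3 stromal markers were called and 1 of 2 erythroid markers rose. The thymocyte markers had a median difference of -1.19. Summed macrophage and granulocyte intensity was 82.7 to 86.6 in the lines, with 0 of 11 genes detected in any line, against 4426 to 7571 in wild type. Their part in the members' results was not tested. The count of called members depended on the wild-type arrays, at 6, 4 and 2 without array 1, 2 and 3, and all of the calls were downward.

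Lines against labelled transgenic thymus gave a like picture with partly other genes. Again 0 members rose and 12 of 36 fell, namely Cd3e, Tec, Lat, Lcp2, Themis, Skap1, Vav1, Rasgrp1, Nfatc1, Cd6, Csk and Cblb, where 15.7% of all genes were called, 7.23% upward and 8.45% downward. The median was -0.74, against 0.06 over all genes tested. All 3 lines lay below the labelled transgenic arrays for 17 members and above them for 3, Nfkbia, Nfatc3 and Cd28, against 20.3% and 22.1% of all genes (42.4% together). Both line comparisons share the 3 lines, so their calls are not independent of each other. Here NK (9 of 11), MHC class II (5 of 8), macrophage and granulocyte (6 of 11), B cell (3 of 9) and thymocyte markers (4 of 12, while 1 rose) fell, and their part in the members' results was not tested. Without line 2 or 3, or without labelled transgenic array 1, 2 or 3, the fit called 3, 5, 3, 3 and 5 members. Leaving out line 1 gave 12 calls, 11 downward and 1 upward, and these were partly other genes. Cd3e, Lat and Vav1 then lost their calls. Ptpn6 and Ptpn22 (both downward) and Grap2 (upward, 1.15, limma adjusted p = 0.0369) gained one. Set against all 6 thymus arrays together, 15 of 36 members were lower in every line than on any thymus array, against 15% of all genes, and 1 member was higher, Nfkbia, against 17.2%.

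**Figure D2:**
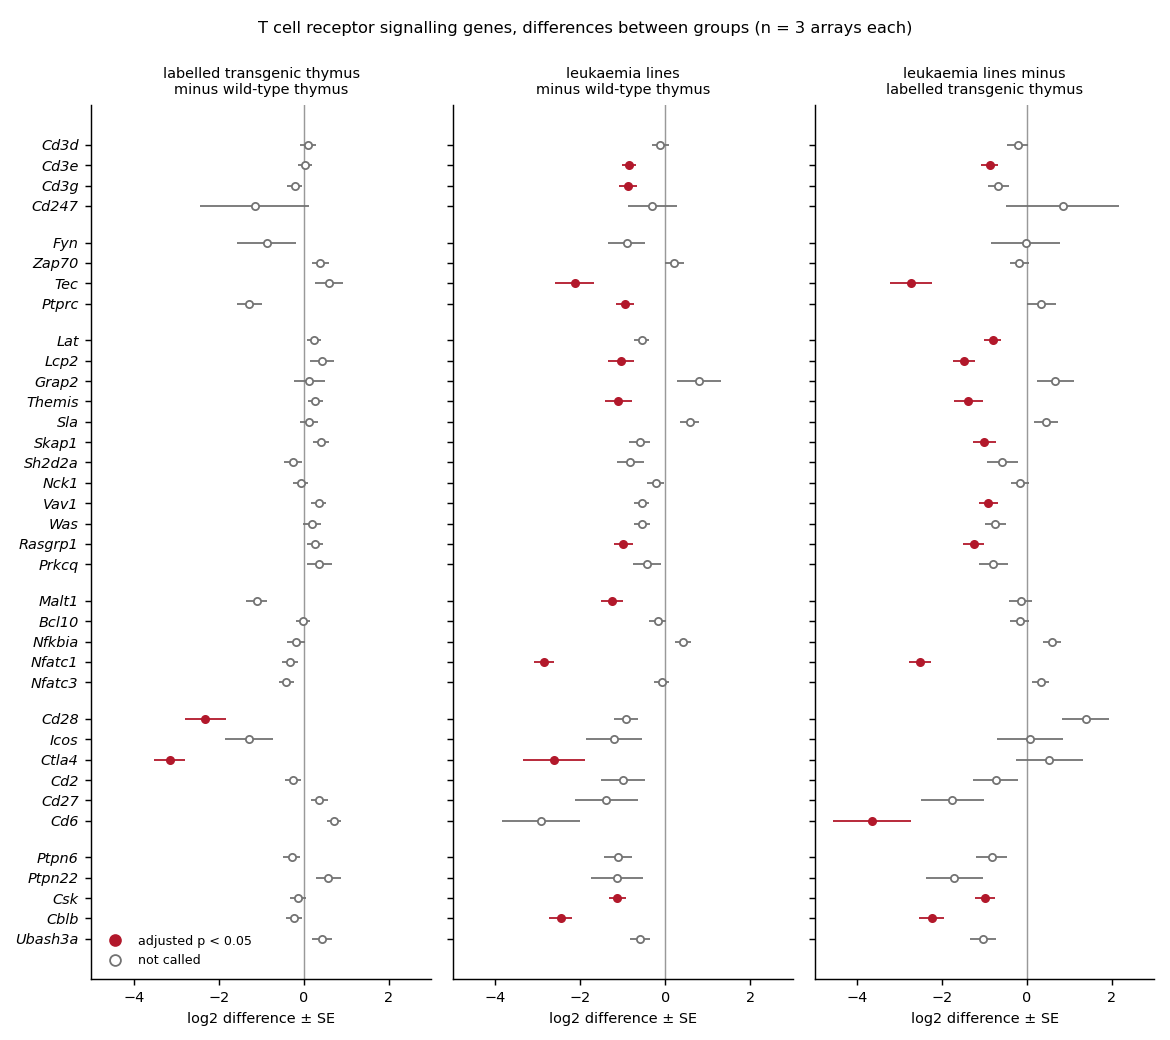
Log2 difference ± SE of the 36 tested members, ordered by role from the CD3 chains at the top to the inhibitors at the bottom, for labelled transgenic minus wild-type thymus, lines minus wild-type thymus and lines minus labelled transgenic thymus (3 arrays a group). Filled points passed an adjusted p of 0.05 in limma: Ctla4 and Cd28 at the left, and 12 members in each line comparison, all below 0.

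The 3 CD3 chains form the dimers that flank the receptor and carry its signalling motifs. Cd3e, the epsilon chain, read 12.33, 12.37 and 12.59 in lines 1 to 3, against 13.32, 13.40 and 13.22 on labelled transgenic arrays and 13.25, 13.24 and 13.36 on wild-type arrays. Every line lay below every thymus array, and the thymus groups overlapped. Cd3e fell by 0.85 ± 0.17 (SE) in the lines against wild type (limma adjusted p = 0.0154) and by 0.88 ± 0.20 against labelled transgenic thymus (adjusted p = 0.0323). The first call was lost without wild-type array 2 or 3 (adjusted p = 0.0578 and 0.0779) and the second without any 1 array (0.0556 to 0.0998). Its other probe gave -0.97 ± 0.20 and -0.98 ± 0.23. Cd3g, the gamma chain, read 12.78, 13.40 and 13.14 in the lines, against 13.86, 13.94 and 13.54 on labelled transgenic and 14.08, 13.94 and 13.95 on wild-type arrays. It fell against wild type (-0.89 ± 0.21, adjusted p = 0.0273), and against labelled transgenic thymus it was lower in all lines without a call (-0.68 ± 0.25, adjusted p = 0.109). The wild-type call was lost without line 3 and without any 1 wild-type array (0.0502 to 0.0967). Cd3d, the delta chain, read 12.95, 13.31 and 13.43 in the lines, against 13.55, 13.61 and 13.18 on labelled transgenic and 13.40, 13.27 and 13.36 on wild-type arrays. Unlike its neighbours it overlapped between lines and thymus, at -0.12 ± 0.20 against wild type (adjusted p = 0.68). That Cd3d differs from Cd3e and Cd3g in its response was not tested.

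The 3 CD3 genes lie within 40.1 kb on mouse chromosome 9, and the gene bodies of Cd3g and Cd3d are 1.3 kb apart and read away from each other. In the lines against wild type Cd3e and Cd3g were called and Cd3d was not, a contrast that was not tested. The promoters of the 3 genes, 300 bases around the annotated start (RefSeq, GRCm38.p6), are printed here. Capitals mark E-boxes, which helix-loop-helix factors of the LMO2 complex bind (CANNTG), and GATA motifs (GATA or TATC), both searched on both strands.
Cd3g, chr9:44980382-44980681, minus strand: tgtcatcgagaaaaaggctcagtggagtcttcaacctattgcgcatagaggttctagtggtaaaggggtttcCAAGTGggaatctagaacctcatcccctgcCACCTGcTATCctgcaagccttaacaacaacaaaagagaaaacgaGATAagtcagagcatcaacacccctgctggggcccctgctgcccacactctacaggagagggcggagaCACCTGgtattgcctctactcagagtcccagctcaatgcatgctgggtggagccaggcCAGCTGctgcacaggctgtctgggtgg
Cd3d, chr9:44981536-44981835, plus strand: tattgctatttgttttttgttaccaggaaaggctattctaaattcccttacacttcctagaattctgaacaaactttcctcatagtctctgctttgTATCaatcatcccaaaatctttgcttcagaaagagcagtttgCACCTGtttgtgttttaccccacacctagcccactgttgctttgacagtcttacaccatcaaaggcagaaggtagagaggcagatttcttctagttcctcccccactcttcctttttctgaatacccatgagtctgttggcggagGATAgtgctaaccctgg
Cd3e, chr9:45009562-45009861, minus strand: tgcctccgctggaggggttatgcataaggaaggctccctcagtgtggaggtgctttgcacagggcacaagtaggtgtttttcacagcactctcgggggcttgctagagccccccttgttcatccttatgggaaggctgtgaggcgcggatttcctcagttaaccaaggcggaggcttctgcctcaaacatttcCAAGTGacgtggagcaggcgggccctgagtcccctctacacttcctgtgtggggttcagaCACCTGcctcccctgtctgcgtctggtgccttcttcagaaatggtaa
The Cd3g promoter held 4 E-boxes and 2 GATA motifs, that of Cd3d 1 and 2, and that of Cd3e 2 and 0. Of 32851 mouse promoters of this length, 72.3% held an E-box and 57.9% a GATA motif. The RUNX motif TGTGGT (in 16.8% of promoters) had 0 matches in any of them. The NFAT motif GGAAA or TTTCC (in 61.3%) had 1 match in Cd3g, 2 in Cd3d and 2 in Cd3e, and in Cd3g and Cd3e a match shared 1 base with an E-box. A match of letters is no evidence of binding.

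Cd247, the zeta chain, was not called in any comparison. It read 9.28, 10.15 and 10.98 in the lines, and its difference between labelled transgenic and wild-type thymus was -1.15 ± 1.28 with labelled transgenic array 2 and 0.49 without it. Against wild type the lines differed by -0.31 ± 0.58 by the probe used and by 0.86 ± 0.38 and 0.91 ± 0.39 by the other probes, so the direction depended on the probe. In each of the 3 probes line 3 was highest and line 1 lowest.

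**Figure D3:**
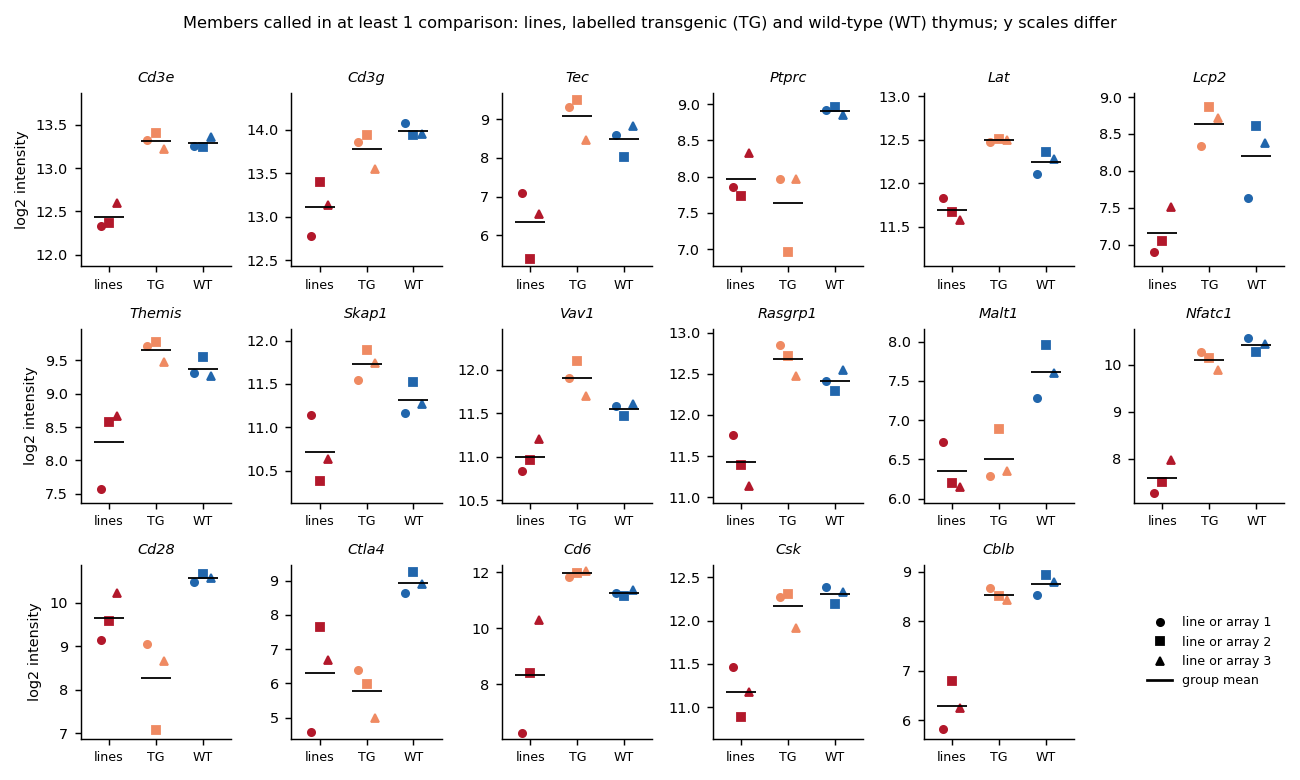
Log2 intensity of the 17 members called in at least 1 comparison in the leukaemia lines, labelled transgenic (TG) and wild-type (WT) thymus, with a point for each array (circle 1, square 2, triangle 3), a bar for the group mean and a y scale of its own for each gene. For Cd3e, Nfatc1, Csk and Cblb the 3 lines sit below all thymus arrays, and for Ctla4 and Cd28 the labelled transgenic arrays sit below wild type.

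Among the proximal kinases and the phosphatase CD45, 2 of 4 measured members fell in the lines against wild type and 1 against labelled transgenic thymus (12.4% and 8.45% of all genes fell), and 0 were called between the thymus groups. Tec, a kinase of the family that activates phospholipase C gamma, read 7.10, 5.39 and 6.55 in lines 1 to 3, against 9.31, 9.49 and 8.46 on labelled transgenic and 8.60, 8.02 and 8.83 on wild-type arrays. Every line was below every thymus array, line 2 the lowest. Tec fell by 2.13 ± 0.46 against wild type (limma adjusted p = 0.0185) and by 2.74 ± 0.49 against labelled transgenic thymus (adjusted p = 0.0169). The first call was lost without wild-type array 1 or 3 (0.0652 and 0.0809) and the second without labelled transgenic array 1 or 2 (0.0698 and 0.0557). Zap70, the kinase that binds phosphorylated CD3 and zeta tails, read 11.44, 11.11 and 11.66 in the lines, against 11.58, 11.69 and 11.46 on labelled transgenic and 11.47, 10.98 and 11.12 on wild-type arrays. It overlapped between all groups, and its difference in the lines was 0.21 ± 0.23 against wild type. Its level in the lines was thus within the range of thymus by the probe used. Fyn read 6.33, 8.12 and 7.05 in the lines, against 8.28, 5.41 and 7.92 on labelled transgenic and 8.33, 7.94 and 7.97 on wild-type arrays, and it was not called in any comparison. Without labelled transgenic array 2 its difference between the thymus groups was 0.02, against -0.87 ± 0.69 with it.

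Ptprc encodes CD45, which keeps the Src family kinases active by removing their inhibitory phosphate. It read 7.86, 7.74 and 8.32 in the lines, 7.97, 6.96 and 7.96 on labelled transgenic arrays and 8.92, 8.96 and 8.86 on wild-type arrays. The lines and the labelled transgenic arrays overlapped, and both lay wholly below wild type. The fall was called for the lines (-0.94 ± 0.21, limma adjusted p = 0.0218) and not for labelled transgenic thymus (-1.28 ± 0.29, adjusted p = 0.057, and 0.0295 without array 2). Its other probe gave -0.95 ± 0.35 and -0.39 ± 0.46 for the same comparisons and was called in neither. The call for the lines was lost without line 2 and without any 1 wild-type array (adjusted p 0.052 to 0.0821).

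Of the 12 measured adaptors and effector enzymes, 3 fell in the lines against wild type and 6 against labelled transgenic thymus (12.4% and 8.45% of all genes fell), and 0 were called between the thymus groups. Lcp2, which encodes the scaffold SLP-76, read 6.90, 7.05 and 7.51 in the lines, against 8.34, 8.86 and 8.72 on labelled transgenic and 7.63, 8.61 and 8.38 on wild-type arrays. Every line lay below every thymus array, line 3 and wild-type array 1 being closest. It fell by 1.48 ± 0.26 against labelled transgenic thymus (limma adjusted p = 0.0163) and by 1.05 ± 0.31 against wild type (adjusted p = 0.0494). A second probe of Lcp2 was detected on all 6 thymus arrays and on 0 of 3 lines. The wild-type call by the probe used was lost in 9 of 15 other settings, among them without line 1 or 2 and without wild-type array 2 or 3 (adjusted p 0.0835 to 0.163), and the other call in 1, without line 2 (0.0551).

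Rasgrp1, the diacylglycerol-driven activator of RAS, read 11.75, 11.40 and 11.14 in the lines, against 12.84, 12.72 and 12.48 on labelled transgenic and 12.42, 12.29 and 12.55 on wild-type arrays. It fell by 1.25 ± 0.25 and 0.99 ± 0.22 against labelled transgenic and wild-type thymus (limma adjusted p = 0.0212 and 0.0205). Themis, which sets the signalling threshold of thymocyte selection, read 7.57, 8.57 and 8.67 in the lines, against 9.48 to 9.77 on labelled transgenic and 9.26 to 9.55 on wild-type arrays, and fell by 1.38 ± 0.33 and 1.10 ± 0.32 (adjusted p = 0.0376 and 0.0469). Against wild type both calls were lost without any 1 wild-type array, and that of Themis also without line 2 (limma adjusted p 0.0582 to 0.146). Against labelled transgenic thymus both were lost without line 2, line 3, or labelled transgenic array 1 or 2, and that of Themis also without array 3 (0.0511 to 0.116). That of Rasgrp1 was also lost with the mean of its kept probes (0.118), and its other probes, 1 of them low on labelled transgenic array 2, were not called there (-0.80 ± 0.69 and -1.25 ± 0.49). In both genes every line was below every thymus array, and line 1 was the highest line for Rasgrp1 and the lowest for Themis. Both other probes of Themis were detected on all 6 thymus arrays and on 0 of 3 lines. Without a detection filter Themis was called against neither group (limma adjusted p = 0.0692 for wild type and 0.0563 for labelled transgenic thymus). With the authors' table its wild-type call was lost (0.0526).

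The scaffold gene Lat, the integrin adaptor gene Skap1 and Vav1, a guanine nucleotide exchange factor, fell against labelled transgenic thymus and were not called against wild type. Lat read 11.83, 11.66 and 11.57 in the lines, against 12.47, 12.51 and 12.50 on labelled transgenic and 12.11, 12.36 and 12.28 on wild-type arrays. The lines were the lowest group and the labelled transgenic arrays the highest, and the groups did not overlap. For all 3 genes the labelled transgenic arrays lay wholly above wild type, without a call (0.25 ± 0.17 for Lat, 0.41 ± 0.19 for Skap1 and 0.35 ± 0.18 for Vav1). Against labelled transgenic thymus the lines differed by -0.80 ± 0.20, -1.01 ± 0.26 and -0.91 ± 0.22 (limma adjusted p = 0.0381, 0.0472 and 0.039). Against wild type they differed by -0.56 ± 0.18, -0.60 ± 0.25 and -0.55 ± 0.18 (adjusted p = 0.0607, 0.119 and 0.0669), with every line below every wild-type array, and were called in 5, 1 and 4 of 15 other settings. Whether the 2 comparisons differ was not tested. Each of the 3 calls was lost without line 2, without line 3 and without any 1 labelled transgenic array (adjusted p 0.0604 to 0.125), and those of Lat and Vav1 also without line 1 (0.0523 and 0.081). That of Skap1 was also lost with the authors' table (0.0526), without a detection filter (0.0522) and with the mean of its probes (0.0695), and its other probes were not called (-0.66 ± 0.33 and -0.60 ± 0.25).

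The remaining 6 adaptors were not called. Was, which drives actin branching, differed by -0.55 ± 0.19 against wild type, the TSAd adaptor gene Sh2d2a by -0.83 ± 0.32, Prkcq, the protein kinase C theta of T cells, by -0.43 ± 0.33, and the SH2 and SH3 adaptor gene Nck1 by -0.23 ± 0.19. The other 2, Sla and Grap2, were the adaptors with positive differences. Sla encodes SLAP, an adaptor that lowers surface TCR in thymocytes, and read 12.71, 12.42 and 13.15 in the lines, against 11.93, 12.44 and 12.57 on labelled transgenic and 12.15, 12.21 and 12.20 on wild-type arrays. All lines were above wild type and overlapped labelled transgenic thymus, and the difference was 0.58 ± 0.23 against wild type (limma adjusted p = 0.107). Both other probes of Sla gave more, 1.34 ± 0.32 and 2.46 ± 0.71, with limma adjusted p over all kept probes of 0.02 and 0.04. Sla was called upward against wild type with the mean of its kept probes (1.46, limma adjusted p = 0.0354). Grap2, which encodes GADS, the bridge between LAT and SLP-76, differed by 0.80 ± 0.52 and was 6.16, 7.59 and 7.64 in the lines. Against labelled transgenic thymus it was called upward without line 1 (1.15, limma adjusted p = 0.0369).

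The group around NF-kappaB and NFAT held the member with the smallest adjusted p in both line comparisons. Nfatc1, a transcription factor that calcium and calcineurin bring to the nucleus, read 7.26, 7.51 and 7.98 in lines 1 to 3, against 10.27, 10.14 and 9.89 on labelled transgenic and 10.57, 10.28 and 10.45 on wild-type arrays. Every line lay far below every thymus array. Nfatc1 fell by 2.85 ± 0.23 against wild type (limma adjusted p = 0.000374) and fell by 2.52 ± 0.26 against labelled transgenic thymus (adjusted p = 0.00283), and both calls were kept in all 15 other settings. Of its 4 other kept probes, 3 fell in both comparisons, and the fourth, detected on 3 arrays, differed by -0.08 ± 0.28 against wild type. Between the thymus groups the probe used differed by -0.33 ± 0.19 (adjusted p = 0.478). A dimmer probe, undetected in the lines, read 6.13, 6.05 and 5.95 on labelled transgenic and 7.27, 7.33 and 7.27 on wild-type arrays and differed by -1.25 ± 0.17, with a limma adjusted p over all kept probes of 0.01. Which transcript of Nfatc1 each probe reads was not analysed here.

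Nfatc3, its relative in thymocytes, read 11.48, 11.74 and 11.56 in the lines, against 11.35, 11.11 and 11.35 on labelled transgenic and 11.54, 11.80 and 11.69 on wild-type arrays. By this probe it was not called and the lines lay within the wild-type range or next to it (-0.08 ± 0.18). Its 4 other probes gave -1.26 ± 0.22, -0.96 ± 0.40, -0.32 ± 0.39 and -0.27 ± 0.39, so whether Nfatc3 was lower in the lines depended on the probe. Malt1, the paracaspase that links the receptor to NF-kappaB, read 6.72, 6.20 and 6.15 in the lines, 6.29, 6.88 and 6.35 on labelled transgenic arrays and 7.28, 7.96 and 7.61 on wild-type arrays. Lines and labelled transgenic arrays overlapped, both below wild type, and the fall was called for the lines (-1.26 ± 0.26, limma adjusted p = 0.0162) and not for labelled transgenic thymus (-1.11 ± 0.25, adjusted p = 0.0571, and 0.0296 without array 2). The call for the lines was lost without wild-type array 2 or 3 (0.0634 and 0.0692). Its partner Bcl10 differed by -0.18 ± 0.20 and -0.01 ± 0.16 in the same comparisons.

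Nfkbia, the inhibitor that holds NF-kappaB in the cytoplasm and is itself a target of it, was the 1 member higher in every line than on any thymus array. It read 9.86, 9.74 and 9.84 in the lines, against 9.0, 9.25 and 9.40 on labelled transgenic and 9.46, 9.60 and 9.12 on wild-type arrays. The difference was 0.60 ± 0.21 against labelled transgenic thymus (limma adjusted p = 0.0956) and 0.42 ± 0.19 against wild type (adjusted p = 0.159), and it was not called. Its other probe gave 0.31 ± 0.29 and 0.02 ± 0.20. By the probe used it was called upward against labelled transgenic thymus without background correction (0.51, limma adjusted p = 0.0465).

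Among the costimulatory and adhesion receptors, 2 of 6 measured members fell in labelled transgenic against wild-type thymus, where 2.38% of all genes fell. In the lines 1 of the 6 fell against each thymus group (16.7%), beside 12.4% and 8.45% of all genes. Ctla4, which opposes CD28 by taking its ligands, read 6.39, 5.97 and 4.98 on labelled transgenic arrays, against 8.64, 9.25 and 8.90 on wild-type arrays. The groups did not overlap, and labelled transgenic array 3 was not above background. The difference of -3.15 ± 0.37 (limma adjusted p = 0.0044) was kept in all 15 other settings, with adjusted p between 0.0011 and 0.0462. In the lines Ctla4 read 4.58, 7.66 and 6.67, undetected in line 1, and fell by 2.63 ± 0.73 against wild type (adjusted p = 0.0412). That call was lost without line 3 and without wild-type array 1, 2 or 3 (0.0634 to 0.132). It was also lost with the authors' table (0.0505) and without a detection filter (0.0752).

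Cd28, which gives the second signal for activation, read 9.04, 7.07 and 8.65 on labelled transgenic arrays, against 10.48, 10.66 and 10.56 on wild-type arrays. The lines read 9.13, 9.57 and 10.21, all above the labelled transgenic and all below the wild-type arrays. Cd28 fell by 2.31 ± 0.47 in labelled transgenic thymus (limma adjusted p = 0.0375), and by 1.72 without array 2 (adjusted p = 0.0055). The call was lost without labelled transgenic array 3 (adjusted p = 0.0556) and without wild-type array 1, 2 or 3 (0.136, 0.155 and 0.144). It was also lost with the authors' table (0.0504), without a detection filter (0.0857) and under a replicate block (0.0637), 7 of 15 settings in all. In the lines it differed by -0.93 ± 0.29 from wild type (adjusted p = 0.0594) and by 1.39 ± 0.55 from labelled transgenic thymus (adjusted p = 0.129).

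Icos, a relative of Cd28 that serves helper T cells, completes the cluster. It read 6.69, 6.91 and 4.86 on labelled transgenic arrays, against 8.14, 7.22 and 6.96 on wild-type arrays, and was lower on all 3 without a call (-1.29 ± 0.57, limma adjusted p = 0.326). Its other probe, detected on 1 labelled transgenic and 3 wild-type arrays, gave -1.53 ± 0.24, with an adjusted p over all kept probes of 0.02. Cd28, Ctla4 and Icos lie within 253.9 kb on mouse chromosome 1, and each was lower on all 3 labelled transgenic arrays than on any wild-type array. The promoter of Ctla4, the member whose call between the thymus groups was kept in every setting, is printed in the same way (RefSeq, GRCm38.p6).
Ctla4, chr1:60908775-60909074, plus strand: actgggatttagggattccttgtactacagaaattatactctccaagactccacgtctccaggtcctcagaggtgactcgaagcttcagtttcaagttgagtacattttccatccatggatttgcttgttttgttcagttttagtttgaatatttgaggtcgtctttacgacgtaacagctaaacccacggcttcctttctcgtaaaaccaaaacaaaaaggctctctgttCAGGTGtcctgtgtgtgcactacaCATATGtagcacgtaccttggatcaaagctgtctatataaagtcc
It held 2 E-boxes and 0 GATA motifs. The median promoter held 1 E-box, and at least 1 in 20 promoters held 4 or more. The share of promoters with 2 or more was not computed.

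Cd6, a scavenger receptor family protein that adjusts TCR signals, read 6.24, 8.41 and 10.30 in lines 1 to 3, against 11.85, 11.98 and 12.06 on labelled transgenic and 11.24, 11.14 and 11.36 on wild-type arrays. The lines were far apart and all below thymus. Cd6 fell by 3.65 ± 0.92 against labelled transgenic thymus (limma adjusted p = 0.0416, lost without line 2 and without any 1 labelled transgenic array, at 0.0998 to 0.118). Cd6 also lost that call without a detection filter (0.0838) and under a replicate block (0.0534). Against wild type it differed by -2.93 ± 0.92 (adjusted p = 0.0579), and 2 of its other probes repeated the order of the lines (6.14, 7.99 and 9.64 by one, 6.11, 8.24 and 9.99 by another). Another kept probe of Cd6 was called against wild type. The probe used was called downward there without line 1 or 3 (limma adjusted p = 0.0364 and 0.0097), with all 9 arrays in 1 fit (0.0268) and without background correction (0.0468). The labelled transgenic arrays were above wild type, without a call (0.71 ± 0.17, adjusted p = 0.0641). In 4 of 15 other settings Cd6 was called upward between these groups (limma adjusted p 0.0131 to 0.0426). Cd27, a costimulatory receptor of the TNF receptor family, read 12.10, 9.78 and 12.92 in the lines, against 13.34 to 13.38 on labelled transgenic and 12.69 to 13.17 on wild-type arrays. Cd2, an adhesion receptor and the gene whose promoter drives the transgene, read 9.17, 10.16 and 7.98 in the lines, against 9.57 to 10.03 on labelled transgenic and 9.99 to 10.17 on wild-type arrays. Neither was called in any comparison.

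Of the 5 measured inhibitors of TCR signalling, 2 fell in the lines against each thymus group, where 12.4% of all genes fell against wild type and 8.45% against labelled transgenic thymus, and 0 were called between the thymus groups. Cblb, a ubiquitin ligase that marks signalling proteins for removal and sets the need for CD28, read 5.83, 6.79 and 6.26 in the lines, against 8.67, 8.52 and 8.42 on labelled transgenic and 8.54, 8.93 and 8.80 on wild-type arrays. All lines lay below all thymus arrays. It fell by 2.47 ± 0.28 against wild type (limma adjusted p = 0.00165) and fell by 2.24 ± 0.29 against labelled transgenic thymus (adjusted p = 0.00602), and both calls were kept in all 15 other settings. No other kept probe of Cblb was called against wild type, while another of its probes fell against labelled transgenic thymus. Csk, the kinase that places the inhibitory phosphate on LCK and FYN, read 11.46, 10.89 and 11.18 in the lines, against 12.27, 12.31 and 11.92 on labelled transgenic and 12.39, 12.19 and 12.33 on wild-type arrays. It fell by 1.13 ± 0.21 against wild type (adjusted p = 0.0112) and by 0.99 ± 0.25 against labelled transgenic thymus (adjusted p = 0.04). The first call was lost in 1 of 15 other settings, without wild-type array 3 (0.0578), and the second without line 2 or 3 and without any 1 labelled transgenic array (0.0627 to 0.124).

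The other 3 inhibitors were not called. The phosphatase gene Ptpn6 (SHP-1) differed by -1.12 ± 0.34 against wild type (limma adjusted p = 0.0524) and by -0.83 ± 0.36 against labelled transgenic thymus. Ubash3a, which encodes a suppressor of TCR signalling, differed by -0.60 ± 0.24 and -1.04 ± 0.30, and its 3 lines lay below all thymus arrays. Ptpn22, a phosphatase that acts with CSK, read 10.48, 7.79 and 9.27 in the lines, against 10.55 to 11.54 on labelled transgenic and 10.18 to 10.50 on wild-type arrays. Line 1 was at thymus levels and line 2 far below them. These 3 inhibitors were called downward against wild type without line 1 (limma adjusted p = 0.00356 for Ptpn6, 0.047 for Ubash3a and 0.024 for Ptpn22). With all 9 arrays in 1 fit Ptpn6 was called against wild type (0.031) and Ubash3a against labelled transgenic thymus (0.0211).

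The lines lay further apart in these genes than the thymus arrays. The median SD of a member was 0.37 over the lines, 0.24 over labelled transgenic and 0.15 over wild-type arrays, against 0.33, 0.32 and 0.21 over all genes tested. The SD over the lines exceeded that over wild type for 30 of 36 members (83.3%) and for 67.3% of all genes. For 6 members (16.7%, against 8.62% of all genes) the lines spanned over 2 log2 units, from 4.06 for Cd6 to 2.18 for Cd2. The spans of Ctla4 and Icos rest on line 1, which was not above background for either, so their size is not measured. No line was lowest throughout. Line 1 was lowest for Cd6, Icos and Ctla4, at background for Icos and Ctla4, and close to thymus for Ptpn22. Line 2 was lowest for Cd27 and Ptpn22 and highest for Ctla4 and Cd2. Line 3 was highest for Cd6, Cd27 and Icos and lowest for Cd2. Over the 36 members line 1 was lowest in 17, line 2 in 11 and line 3 in 8, against 34.9%, 31.5% and 33.6% of all genes. Just inside the limit of 2 lay Cd2 and just outside it Fyn, at 1.79. With 1 array a line there is no test between lines.

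**Figure D4:**
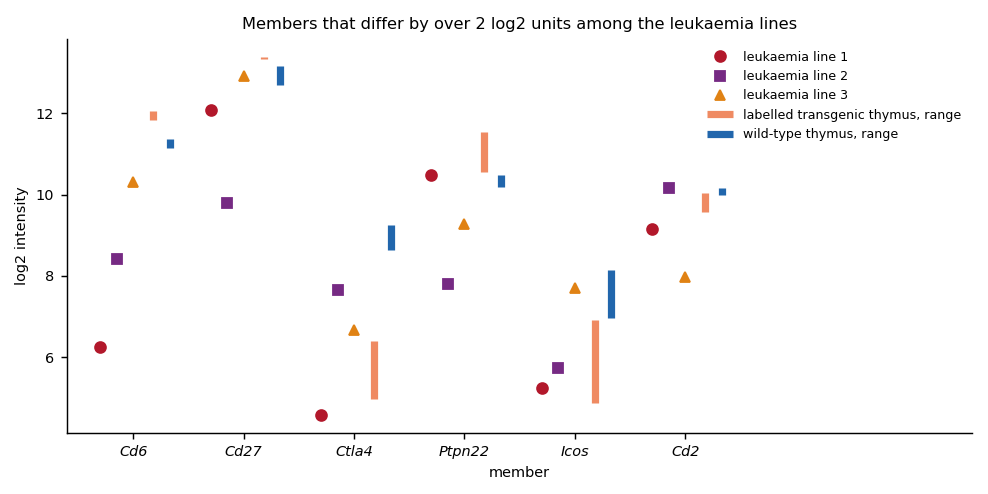
Log2 intensity in leukaemia lines 1, 2 and 3 (points) of the 6 members that spanned over 2 log2 units among the lines, beside the range of the labelled transgenic and wild-type thymus arrays (vertical bars). Cd6 climbs from 6.24 in line 1 to 10.30 in line 3 and stays below thymus, whereas line 2 is lowest for Cd27 (9.78) and line 3 for Cd2 (7.98).

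The wider pathway was read through 8 further lists with 251 genes, 201 of them tested, which hold no member. In labelled transgenic against wild-type thymus 6 rose and 13 fell, 9.45% against 4.68% of all genes. Nck2, an adaptor related to Nck1, rose by 2.92 ± 0.27, and Slamf1, a receptor of the SLAM family, by 2.10 ± 0.24. Spred1, an inhibitor of the RAS pathway, fell by 2.77 ± 0.35 and Ppp3cc, a catalytic subunit of calcineurin, by 1.47 ± 0.17 (limma adjusted p between 0.00196 and 0.00594 for the 4 genes). The list with the most calls was that of further costimulatory, inhibitory and SLAM family receptors, in which 1 of 26 rose and 5 fell. Of those 5, Slamf7 (-1.70 ± 0.19), Cd226 (-1.20 ± 0.20) and Cd7 (-1.30 ± 0.22) are also made by NK cells, whose markers fell on the same arrays, and the part of those cells was not tested. Of 23 protein kinase C and NF-kappaB genes 0 were called.

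In the lines against wild type 7 of the 201 rose and 58 fell, against 12.1% and 12.4% of all genes, and the median was -0.60. Of 23 calcium, calcineurin and NFAT genes 2 rose and 3 fell. Ppp3ca, a catalytic subunit of calcineurin, fell by 2.84 ± 0.32 (limma adjusted p = 0.00166) and Nfat5 by 1.36 ± 0.18, while the calcineurin inhibitor gene Rcan1 rose by 1.70 ± 0.25 and the calcium sensor gene Stim2 by 1.08 ± 0.23. Of 20 phosphoinositide genes 2 rose and 8 fell, among them the PI3 kinase catalytic genes Pik3cb (2.13 ± 0.26) and Pik3cd (-3.01 ± 0.51) in opposite directions. Of 29 actin and adhesion genes 0 rose and 11 fell, with Vav3, a relative of Vav1, lower by at least 7.50-fold (adjusted p = 0.00011) and Dock2, an activator of RAC, at -2.93 ± 0.30. A bound of this kind sets the detected group against the lowest detected signal of each array where the gene was not detected.

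In the lines against wild type 24.5% of all genes were called, 12.1% upward and 12.4% downward. Called were 28.6% of RAS and MAP kinase genes and 26.9% each of the further inhibitors and the further kinases and adaptors. The share was 50% of receptor genes and 17.4% of protein kinase C and NF-kappaB genes. Of 28 RAS and MAP kinase genes 0 rose and 8 fell, among them the ERK phosphatase genes Dusp5 (-2.18 ± 0.25) and Dusp6 (-2.38 ± 0.36). Of 26 further inhibitors 1 rose and 6 fell, and Cish, a suppressor of cytokine signalling, was lower by at least 11.0-fold (limma adjusted p = 2.07e-05). Among further kinases and adaptors 7 of 26 fell, with Stk17b, a kinase of the death-associated family, at -2.41 ± 0.18 and Tespa1, a thymocyte protein of TCR signalling, at -1.68 ± 0.23. The receptor list had the most calls here too, 13 of 26 downward and 0 upward. Of 23 protein kinase C and NF-kappaB genes 2 rose and 2 fell, and Tnfaip3, which encodes the inhibitor A20, fell by 1.35 ± 0.21.

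Against labelled transgenic thymus 6 of the 201 rose and 42 fell, against 7.23% and 8.45% of all genes, with a median of -0.50 against 0.06 over all genes. Cd53, a tetraspanin of white blood cells, fell by 5.38 ± 0.53 (limma adjusted p = 0.00243), and Tespa1 (-2.97 ± 0.27), the phosphatase gene Dusp2 (-2.72 ± 0.43) and Tnfaip3 (-2.27 ± 0.29) fell too. Spred1 was the RAS pathway gene that rose (2.63 ± 0.38), its lines at 8.16 ± 0.10 (SD, n = 3) beside 5.53 on labelled transgenic and 8.31 on wild-type arrays. Rcan1 rose by 3.00 ± 0.54 and Pik3cb by 2.99 ± 0.33. The difference in share of calls between these lists and the members was not tested.

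**Figure D5:**
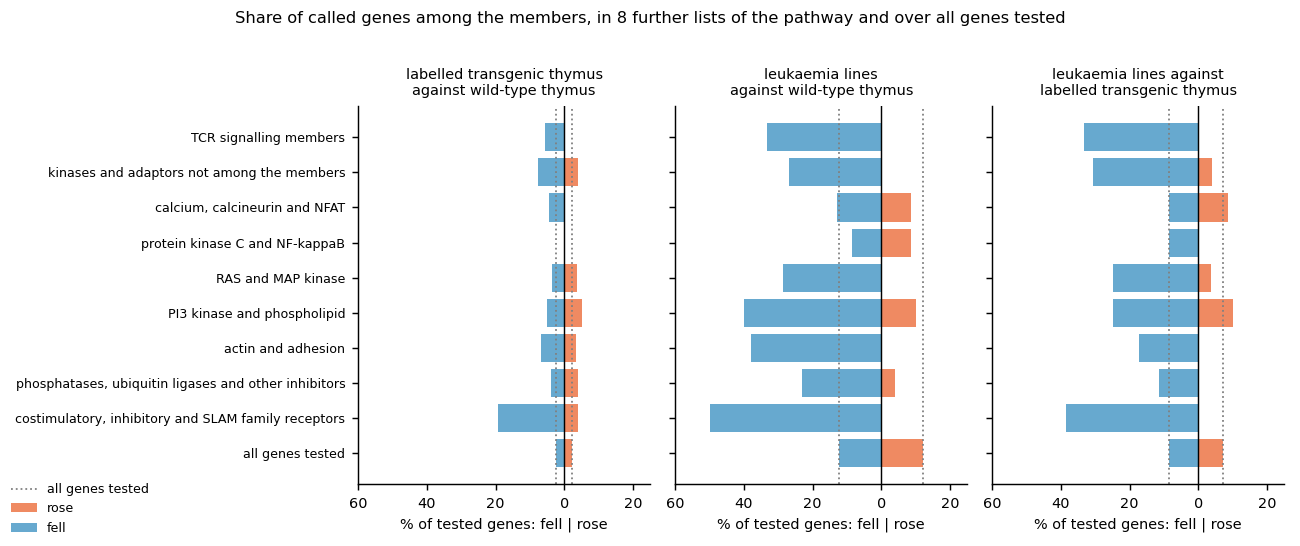
Share of tested genes that fell (left of 0) or rose (right of 0) among the members, in each of 8 further pathway lists and over all genes tested, for labelled transgenic against wild-type thymus, lines against wild-type thymus and lines against labelled transgenic thymus; dotted lines mark the shares over all genes. Against wild type 12 of 36 members, 13 of 26 receptor genes and 2 of 23 NF-kappaB genes fell in the lines.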

How the data were processed

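The deposited intensity table held raw probe intensities, 1 column an array, with a detection p-value for each probe against control beads, per the file headers. The authors' deposited log2 table holds their normalized values of the same arrays. Per the submitters' processing notes the tools were BeadStudio and limma (no version stated there). The raw intensities of 45281 probes were background-corrected with the detection p-values and quantile-normalized (neqc, limma 3.58.1 in R 4.3.3, offset 16), and correlated with the authors' table at r = 0.9993. Of these, 19490 probes had a detection p under 0.05 on at least 3 of 9 arrays. Probes without a single symbol in the platform annotation (10378 with none, 18 with several) were left out. Each gene was read by its kept probe with the highest mean, which gave 10072 genes.

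Groups followed the sample labels. Each of 3 comparisons was fitted on its own 6 arrays with lmFit and eBayes, two-sided, and a call was a Benjamini-Hochberg adjusted p under 0.05 over all genes tested. A value ± SE is a log2 difference and its standard error. The steps were tested on simulated data. Any member could be named, and of each pathway list up to 4 called genes in each direction and comparison, by smallest p. Also open to naming were genes spanning over 2 log2 units among the lines, marker genes, and Lmo2, Xist and Eif2s3y as label checks. The members, the lists and the arrays and probes singled out were chosen with earlier results of these data known. Alternatives changed the background correction, offset, detection filter, probe choice, arrays in the fit, eBayes setting, replicate block and the arrays left out, and used the authors' table.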

Additional observations from a re-analysis of the deposited data

How the results depend on the processing

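Of 1620 results for single members under 15 alternatives, 1435 kept direction and call, 110 lost the call, 49 gained one and 26 changed direction, all 26 without a call. In labelled transgenic against wild-type thymus 2 members were called, and 4 without background correction, 4 with offset 50, 1 with the authors' table, 4 with trend and robust eBayes and 1 to 4 with an array left out. Cd6 rose among those called without background correction, with offset 50, with trend and robust eBayes and without a detection filter. The share of all genes called between the thymus groups was 4.68%, and it was 2.98% with all 9 arrays in 1 fit and 1.53% to 5.45% with an array left out. In the lines against wild type 12 members were called, and 2 to 17 with an array left out, where the share of all genes moved between 9.66% and 29.6%. In the lines against labelled transgenic thymus 12 members were called, and 3 to 12 with an array left out, where the share of all genes moved between 4.41% and 14.5%, and it was 27.7% with all 9 arrays in 1 fit. Without a detection filter, over 19057 genes, the shares in the order of the report were 1.95%, 13.2% and 7.93%. A fit without an array has fewer samples, and the other causes were not tested.

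The labels do not say that replicate numbers pair the samples, and with 3 arrays a group the values cannot settle it. Deviations of same-numbered samples correlated at -0.15, -0.14 and 0.16 between the thymus groups and at -0.09, -0.01 and -0.03 between lines and wild type. Between lines and labelled transgenic thymus they correlated at 0.03, -0.01 and -0.07. The same number gave the highest correlation only for replicate 1 of lines and labelled transgenic thymus. With the number as a replicate block, 1, 5 and 4 members and 2.91%, 13.9% and 6.46% of all genes were called in the 3 comparisons. Against wild type the lines lost the calls of Cd3e, Cd3g, Ptprc, Lcp2, Themis, Rasgrp1 and Malt1 under this block. Against labelled transgenic thymus they lost those of Cd3e, Lat, Themis, Skap1, Vav1, Rasgrp1, Cd6 and Csk.

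With the mean of a gene's kept probes the direction changed for Sla (-0.040) and Rasgrp1 (-0.013) between the thymus groups, Cd247 (0.49) in lines against wild type, and Fyn (0.079), Zap70 (0.40), Ptprc (-0.11) and Nfatc3 (-0.31) in lines against labelled transgenic thymus. With an array left out the direction changed for 13 differences, given here by their lowest and highest values. Between the thymus groups these were Nck1 (-0.13 to 0.016), Bcl10 (-0.051 to 0.031), Cd3e (-0.015 to 0.074), Cd247 (-2.03 to 0.49), Fyn (-1.41 to 0.023) and Grap2 (-0.26 to 0.48). In lines against wild type they were Cd3d (-0.22 to 0.025) and Cd247 (-0.84 to 0.12). In lines against labelled transgenic thymus they were Fyn (-0.93 to 0.50), Ctla4 (-0.15 to 1.39), Icos (-0.66 to 0.57), Cd247 (-0.81 to 1.72) and Malt1 (-0.33 to 0.038). Signals close to background, as for Ctla4, Icos and Tec, limit how large a difference can be read, and without background correction Ctla4 differed by -1.82 between the thymus groups.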
